A study of Homo sapiens with 15 samples.

Results

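P2RY2 and 9 related genes were followed in the RNA of MOLM-14 cells, a human acute myeloid leukaemia (AML) line that carries an MLL-AF9 fusion. They are 5 further genes of the P2Y family (P2RY1, P2RY6, P2RY8, P2RY11 and P2RY13), 3 genes of the P2X family (P2RX1, P2RX4 and P2RX7) and ENTPD1, and they were chosen by gene name. All 10 are among the 57964 entries of the expression table. The 4 groups, with 2 libraries each, were cells 6 h after electroporation with 100 nM in vitro transcribed (IVT) NR4A1 RNA, cells 6 h after electroporation with 100 nM IVT GFP RNA, cells after 6 h in 10 uM dihydroergotamine (DHE), and cells after 6 h in vehicle (DMSO). NR4A1 is an orphan nuclear receptor and DHE an ergot drug, and the design sets NR4A1 RNA against GFP RNA and DHE against vehicle. The 2 control groups differ in electroporation, in the GFP RNA and in the vehicle at once. GFP RNA against vehicle thus sets the controls side by side and cannot tell these apart. All values come from 1 established line, and nothing states whether the 2 libraries of a group came from separate cultures. The p-values thus measure only the spread between these libraries, pooled over the 4 groups.

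Purinergic receptors let cells sense nucleotides that leave stressed, dividing or dying neighbours. P2Y receptors are G protein-coupled: P2RY2 answers ATP and UTP, P2RY6 answers UDP, P2RY11 answers ATP, and P2RY1 and P2RY13 answer ADP. P2RY8 carries the family name through its sequence, but its known ligand is a glutathione conjugate of a lipid, and in B cells it restrains growth and migration. P2X receptors are cation channels opened by ATP, and among them P2RX7 opens only at high ATP and feeds the NLRP3 inflammasome in myeloid cells. ENTPD1, also called CD39, is the cell surface enzyme that breaks ATP and ADP down to AMP.

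The libraries were first checked as a whole. NR4A1 stood at 719 and 674 TPM (the share of a library's transcripts that a gene holds, corrected for length by Salmon) after NR4A1 RNA, which includes the introduced RNA, against 2.49 and 2.84 TPM after GFP RNA, and it stood at 1.43 and 1.67 TPM with DHE, against 1.27 and 1.70 TPM with vehicle. The related NR4A2 stood at 0.629 and 0.964 TPM with DHE, against 0.544 and 0.418 TPM with vehicle. NR4A3 stood at 0.191 and 0.258 TPM with DHE, against 0.00492 and 0.00665 TPM with vehicle. Both were too low to be tested. All 7 myeloid leukaemia markers were expressed at the level needed for a test. Of 14 lymphocyte, erythroid, megakaryocyte, epithelial and fibroblast markers, CD8A alone reached that level, at 1.05 and 1.29 TPM with DHE and at most 0.121 TPM elsewhere, and HBB, PF4 and KRT19 were at 0 in every library. GFP replicate 1 stood apart, with 21.4% of its TPM in 3 entries, MIR663A, MIR663B and RP3-410C9.1. They are called ribosomal RNA related in this text, a label that the deposited values do not give and that was not tested. DHE replicate 2 had 5.22% in the 3 entries and the other libraries 0.503% to 1.90%. Results are therefore also given without these libraries where that changes them.

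In the resting state of the line, that is with vehicle, P2RY8 and P2RY2 were the most abundant of the 10 transcripts. TPM are set per length, so genes can be compared within a library. P2RY8 stood at 41.2 and 41.3 TPM, P2RY2 at 33.1 and 32.9 TPM, P2RY11 at 18.2 and 17.2 TPM, P2RX4 at 15.7 and 15.6 TPM, and P2RX1 at 11.98 and 12.2 TPM. P2RX7 followed at 7.01 and 6.46 TPM, P2RY6 at 5.08 and 4.37 TPM, and ENTPD1 at 0.948 and 1.07 TPM. None of these neighbours in the order overlapped in the vehicle libraries. P2RY1 lay between 0.0464 and 0.133 TPM over the 8 libraries and P2RY13 between 0 and 0.0179 TPM, so both ADP receptors among the members were at or near 0. Neither was tested, because a test needed at least 1 TPM in at least 2 libraries, which 14367 genes and 8 of the 10 members had.

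**Figure D1:**
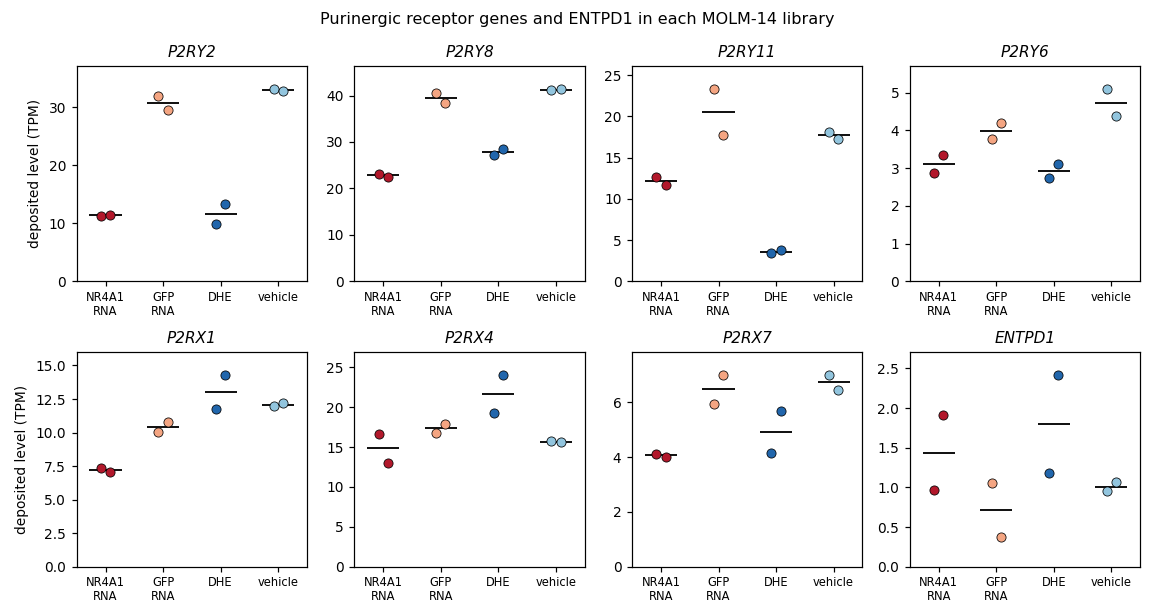
Deposited TPM (vertical axes, each from 0) of the 8 tested genes in every library, with 1 point per library and a line at the mean of the 2 libraries of a group, for NR4A1 RNA, GFP RNA, DHE and vehicle. P2RY2 sat between 9.82 and 13.4 TPM in all 4 NR4A1 and DHE libraries and between 29.6 and 33.1 TPM in all 4 GFP and vehicle libraries.

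P2RY2, the receptor for ATP and UTP, fell after both treatments. It stood at 11.3 and 11.5 TPM after NR4A1 RNA, against 31.9 and 29.6 TPM after GFP RNA. With DHE it stood at 9.82 and 13.4 TPM, against 33.1 and 32.9 TPM with vehicle. No treated library came near a control library, and the GFP and vehicle libraries were close to each other. After each library was scaled by its median ratio to the others, P2RY2 averaged 11.6 ± 0.416 scaled TPM after NR4A1 RNA and 32.5 ± 4.80 after GFP RNA, and 10.997 ± 1.37 with DHE and 32.0 ± 0.355 with vehicle (SD, n = 2 each).

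On the log2(scaled TPM + 0.5) scale on which all fold changes are given, P2RY2 changed by -1.44 after NR4A1 RNA (SE 0.12, 95% interval -1.74 to -1.14, limma adjusted p = 0.0035) and by -1.50 with DHE (SE 0.12, interval -1.81 to -1.20, limma adjusted p = 5.6e-04). Among the 7503 genes lower after NR4A1 RNA it ranked 27 by p, and it ranked 38 by size among the 324 called lower, where a call needs an adjusted p under 0.05 and more than 1.5-fold. Among the 6660 genes lower with DHE it ranked 323 by p, and 198 by size among the 1457 called lower. Between GFP RNA and vehicle P2RY2 differed by 0.01 (interval -0.29 to 0.32). In bulk RNA a lower level per cell and fewer cells that carry the transcript cannot be told apart. Both calls held with any 1 library left out: the change after NR4A1 RNA was -1.30 without GFP replicate 1, and that with DHE was -1.62 without DHE replicate 2.

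No difference between the 2 treatments was detected in the fall of P2RY2. The DHE effect minus the NR4A1 effect was -0.06 (SE 0.18, interval -0.49 to 0.37, limma adjusted p = 0.83), so an effect of DHE larger or smaller than that of NR4A1 RNA within these bounds was not resolved. With GFP replicate 1 and DHE replicate 2 both left out, an alternative added after the data were seen, the difference was -0.34 and passed (limma adjusted p = 0.047).

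Of the 8 tested members, 3 were called lower after NR4A1 RNA (P2RY2, P2RY8 and P2RX7) and none higher, also at an unadjusted p under 0.05, where 2.26% of all tested genes were called lower and 2.64% higher. With DHE 3 were called lower (P2RY2, P2RY11 and P2RY6) and none higher (P2RX4 was higher at an unadjusted p under 0.05), where 10.1% of all tested genes were called lower and 9.07% higher. P2RY2 was the member called in both. By adjusted p alone, whatever the size, 4 members were lower after NR4A1 RNA against 4.27% of all tested genes, and 5 with DHE against 18.0%. The median change of the 8 members was -0.60 after NR4A1 RNA and -0.52 with DHE, beside -0.02 and 0.04 over all tested genes. Between GFP RNA and vehicle no member was called by limma, and none had an unadjusted p under 0.05. Over all genes 0.0139% were called there. Without GFP replicate 2, P2RY11 was called in that comparison.

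**Figure D2:**
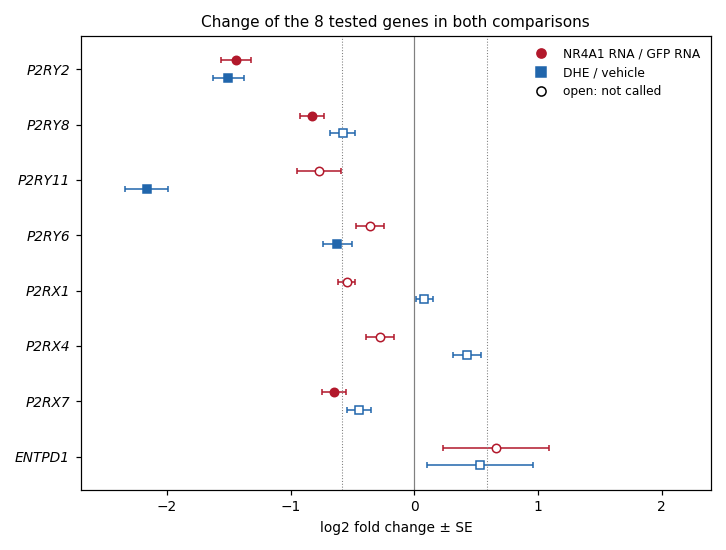
Log2 fold change ± SE (horizontal axis) of the 8 tested genes for NR4A1 RNA over GFP RNA (circles) and DHE over vehicle (squares), from the limma fit; filled symbols were called, open ones not, and dotted lines mark a 1.5-fold change. P2RY2 is the gene with filled symbols in both comparisons, at -1.44 and -1.50.

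Among the other P2Y genes, P2RY8 was called lower after NR4A1 RNA. It stood at 23.1 and 22.5 TPM after NR4A1 RNA, against 40.6 and 38.4 TPM after GFP RNA, a change of -0.83 (SE 0.10, limma adjusted p = 0.0085). With DHE it stood at 27.2 and 28.6 TPM, against 41.2 and 41.3 TPM with vehicle. Every treated library was below every control library, and with DHE the change of -0.58 (limma adjusted p = 0.0068) passed the test but not the 1.5-fold limit. Leaving out NR4A1 replicate 1 or 2 raised the adjusted p after NR4A1 RNA to 0.084 and 0.087 in limma. Leaving out DHE replicate 1 or vehicle replicate 1 took the DHE change past the limit, to -0.63 and -0.60. The difference of the 2 effects on P2RY8 was 0.25 (limma adjusted p = 0.25), and 0.38 without GFP replicate 2, where it passed (limma adjusted p = 0.034).

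P2RY11, the P2Y receptor that raises cyclic AMP, fell most with DHE. It stood at 3.43 and 3.78 TPM with DHE, against 18.2 and 17.2 TPM with vehicle, a change of -2.16 (SE 0.17, limma adjusted p = 5.3e-04). After NR4A1 RNA it stood at 12.6 and 11.6 TPM, against 23.3 and 17.8 TPM after GFP RNA, and the change of -0.77 did not pass (limma adjusted p = 0.050). Both comparisons kept treated and control libraries apart, but the GFP libraries lay far from each other. Without GFP replicate 1, which stood apart, the change after NR4A1 RNA was -0.49 and under 1.5-fold (limma adjusted p = 0.035), and without GFP replicate 2 it was -1.06 and was called. The DHE effect minus the NR4A1 effect was -1.39 (SE 0.25, limma adjusted p = 0.018), and this lost the call in 5 of the 8 fits that leave out 1 library, with an adjusted p of up to 0.079 in limma (either NR4A1 library, either vehicle library or DHE replicate 2).

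P2RY6, the receptor for UDP, was low in every library. It stood at 2.75 and 3.12 TPM with DHE, against 5.08 and 4.37 TPM with vehicle, a change of -0.62 (SE 0.11, limma adjusted p = 0.0088) that was not called without vehicle replicate 1 (-0.54, limma adjusted p = 0.067). After NR4A1 RNA it stood at 2.87 and 3.33 TPM, against 3.77 and 4.19 TPM after GFP RNA, and the change of -0.36 did not pass (limma adjusted p = 0.11). The treated libraries were lower in both comparisons, without overlap, which with 2 libraries a group is a description and not a test.

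Of the ATP-gated channels, P2RX7 was called lower after NR4A1 RNA. It stood at 4.13 and 4.01 TPM after NR4A1 RNA, against 5.95 and 6.99 TPM after GFP RNA, a change of -0.65 (SE 0.10, limma adjusted p = 0.017). With DHE it stood at 4.16 and 5.67 TPM, against 7.01 and 6.46 TPM with vehicle, and the change of -0.45 passed the test (limma adjusted p = 0.016) without reaching 1.5-fold. The call after NR4A1 RNA was lost when either NR4A1 library or GFP replicate 1 was left out, with an adjusted p of 0.058 to 0.13 in limma.

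P2RX1, a rapidly desensitizing channel known from platelets, and P2RX4, found largely on lysosomes of myeloid cells, differed between the treatments. P2RX1 stood at 7.36 and 7.07 TPM after NR4A1 RNA, against 10.1 and 10.8 TPM after GFP RNA, a change of -0.55 (SE 0.07, limma adjusted p = 0.010) under the 1.5-fold limit. With DHE it stood at 11.8 and 14.3 TPM, against 11.98 and 12.2 TPM with vehicle, and the change was 0.08 (limma adjusted p = 0.43). The NR4A1 libraries were thus below the GFP libraries, while the DHE and vehicle libraries overlapped.

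P2RX4 stood at 19.3 and 24.1 TPM with DHE, against 15.7 and 15.6 TPM with vehicle, a change of 0.43 (SE 0.11, limma adjusted p = 0.029) under the 1.5-fold limit. After NR4A1 RNA it stood at 16.7 and 13.01 TPM, against 16.8 and 17.9 TPM after GFP RNA, and the change was -0.28 (limma adjusted p = 0.17). The DHE libraries were above both vehicle libraries, and the NR4A1 libraries were just below the GFP libraries. The DHE effect minus the NR4A1 effect was 0.62 for P2RX1 (limma adjusted p = 0.013) and 0.70 for P2RX4 (limma adjusted p = 0.032), where 18.9% of all tested genes passed this test. Without GFP replicate 2 the P2RX1 change after NR4A1 RNA was -0.60 and was called. The differences lost their calls without either vehicle library, and also without either NR4A1 library for P2RX1 (limma adjusted p up to 0.072) and without NR4A1 replicate 2, GFP replicate 1 or DHE replicate 2 for P2RX4 (limma adjusted p up to 0.11).

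ENTPD1, the enzyme that removes extracellular ATP, stood at 0.962 and 1.92 TPM after NR4A1 RNA, against 1.05 and 0.369 TPM after GFP RNA. With DHE it stood at 1.18 and 2.42 TPM, against 0.948 and 1.07 TPM with vehicle. The NR4A1 and GFP libraries overlapped, the DHE libraries were both above the vehicle libraries but far from each other, and the changes of 0.66 (interval -0.39 to 1.70) and 0.53 (interval -0.52 to 1.57) did not pass (limma adjusted p = 0.35 and 0.39).

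The place of P2RY2 within its family moved with the treatments. It made up 22.6% and 23.4% of the summed TPM of the 6 P2Y genes after NR4A1 RNA, against 32.0% and 32.9% after GFP RNA, and 22.7% and 27.3% with DHE, against 33.9% and 34.3% with vehicle. The ratio of P2RY2 to P2RY8, which no scaling between libraries can change, was 0.488 and 0.511 after NR4A1 RNA, against 0.786 and 0.771 after GFP RNA, and 0.362 and 0.468 with DHE, against 0.803 and 0.795 with vehicle. The ratio of P2RY2 to P2RX4 was 0.676 and 0.883 after NR4A1 RNA, against 1.90 and 1.65 after GFP RNA, and 0.509 and 0.556 with DHE, against 2.10 and 2.11 with vehicle. P2RY2 thus took the fourth place by TPM in the 4 treated libraries and the second place in the 4 control libraries.

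Neighbours in that order were not always apart. After NR4A1 RNA P2RY11 (12.6 and 11.6 TPM) and P2RY2 (11.3 and 11.5 TPM) lay next to each other, and after GFP RNA P2RY11 (23.3 and 17.8 TPM) overlapped P2RX4 (16.8 and 17.9 TPM). With DHE P2RY2 (9.82 and 13.4 TPM) overlapped P2RX1 (11.8 and 14.3 TPM). P2RY8 was first in all 8 libraries.

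**Figure D3:**
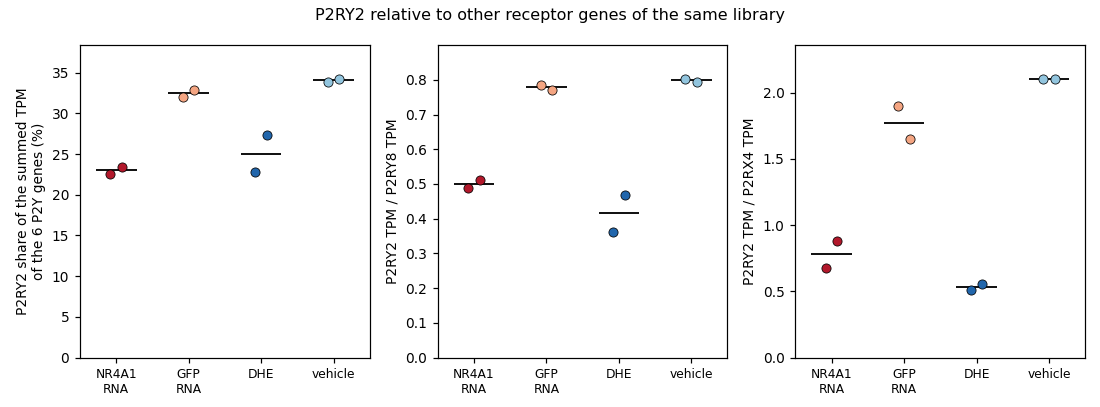
P2RY2 as a percentage of the summed TPM of the 6 P2Y genes (left), and its TPM divided by that of P2RY8 (middle) and of P2RX4 (right), with 1 point per library and a line at the group mean, for NR4A1 RNA, GFP RNA, DHE and vehicle; all axes start at 0. The ratio to P2RY8 was at most 0.511 in the NR4A1 and DHE libraries and at least 0.771 in the GFP and vehicle libraries.

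Over the 8 libraries, the levels of P2RY8, P2RX7 and P2RY6 followed that of P2RY2 with a Pearson r of 0.96, 0.95 and 0.93. P2RY11 had an r of 0.79, P2RX1 of 0.39, P2RX4 of -0.19 and ENTPD1 of -0.54. These are descriptions on the log2 scale over 8 libraries that share 4 treatments, so they mostly restate the group means. Among 8944 tested genes whose mean over the libraries reached 5 scaled TPM, members excepted, 294 (3.29%) had an r of at least 0.9 with P2RY2. The 6 closest were RP11-800A3.4 (r 0.998, Spearman coefficient 0.976), FUT4 (r 0.994, Spearman 0.929), RIN1 (r 0.991, Spearman 0.762), RAB40C (r 0.990, Spearman 0.952), ST3GAL4 (r 0.989, Spearman 0.810) and TRIP6 (r 0.986, Spearman 0.881).

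FUT4 makes the Lewis x sugar known as CD15 on myeloid cells, ST3GAL4 adds sialic acid to the same kind of sugar chain, and RIN1 is a Ras effector. ST3GAL4 had 7.04 and 8.14 TPM after NR4A1 RNA, against 21.2 and 22.8 TPM after GFP RNA, and 7.79 and 8.41 TPM with DHE, against 22.6 and 22.2 TPM with vehicle. Its changes of -1.53 and -1.43 (limma adjusted p = 0.0015 and 2.9e-04) were called with any 1 library left out. FUT4 changed by -0.68 and -0.78 (limma adjusted p = 0.0063 and 8.4e-04), and its call after NR4A1 RNA was lost without NR4A1 replicate 1 or 2 (limma adjusted p up to 0.076). RAB40C and TRIP6 changed by less than 1.5-fold in both comparisons.

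RP11-800A3.4, an entry named by its clone, stood at 7.12 and 6.57 TPM after NR4A1 RNA, against 20.5 and 19.2 TPM after GFP RNA, and at 5.87 and 8.66 TPM with DHE, against 20.5 and 20.4 TPM with vehicle. Neither the table nor the reference used here places it on the genome. P2RY2 itself spans chr11:72929326-72953472 on the plus strand (GRCh37, Gencode), and an unnamed lncRNA of the same strand, ENSG00000260401, lies inside it at chr11:72950020-72953380. Reads of an entry that overlaps P2RY2 on its own strand could be shared between them, which was not tested.

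The members lie in several small clusters, which allows each to be set beside its neighbours. P2RY6 starts 22.1 kb downstream of P2RY2 on the same strand of chromosome 11, and P2RX4 starts 22.0 kb downstream of P2RX7 on the same strand of chromosome 12. FCHSD2, 76.0 kb upstream of P2RY2, had 8.87 and 8.10 TPM after NR4A1 RNA, against 10.2 and 9.49 TPM after GFP RNA, and 6.47 and 10.2 TPM with DHE, against 9.43 and 8.52 TPM with vehicle, and it was not called (limma adjusted p = 0.35 and 0.53). RELT, a TNF receptor family gene beyond P2RY6, changed by -0.07 and -0.11 (limma adjusted p = 0.62 and 0.39). Of the 6 tested neighbours of P2RY2 and P2RY6, limma called none after NR4A1 RNA (1 had an unadjusted p under 0.05) and 1 with DHE, FAM168A, which was higher by 0.73 (limma adjusted p = 0.0056). With DHE 9.07% of all tested genes were called higher and 10.1% lower.

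CAMKK2, the calcium-dependent kinase that lies 3.6 kb beyond P2RX4 on the other strand, fell with DHE. It stood at 13.2 and 18.0 TPM with DHE, against 44.0 and 42.2 TPM with vehicle, a change of -1.47 (limma adjusted p = 5.3e-04), while P2RX4 was higher. After NR4A1 RNA CAMKK2 changed by -0.66 (limma adjusted p = 0.027), a call lost without either NR4A1 library, either vehicle library or GFP replicate 1 (limma adjusted p up to 0.17). CRLF2, a cytokine receptor gene 249.9 kb from P2RY8, stood at 12.1 and 12.2 TPM with DHE, against 0.231 and 0.112 TPM with vehicle. This is a change of 4.19, opposite in sign to that of P2RY8. CRLF2 reached the filter of 1 TPM only in the DHE libraries, so its test rests on the group that admitted it, and no p-value is given. Of the 4 tested neighbours of P2RY8, 1 was called after NR4A1 RNA, AKAP17A, where 2.64% of all tested genes were called higher. It changed by 0.69 (limma adjusted p = 0.0081), opposite in sign to P2RY8, a call lost without either NR4A1 library (0.68 and 0.70). With DHE AKAP17A changed by 0.36, under 1.5-fold (limma adjusted p = 0.018). P2RY8, CRLF2 and AKAP17A lie in the pseudoautosomal region, so reads of their X and Y copies cannot be told apart.

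**Figure D4:**
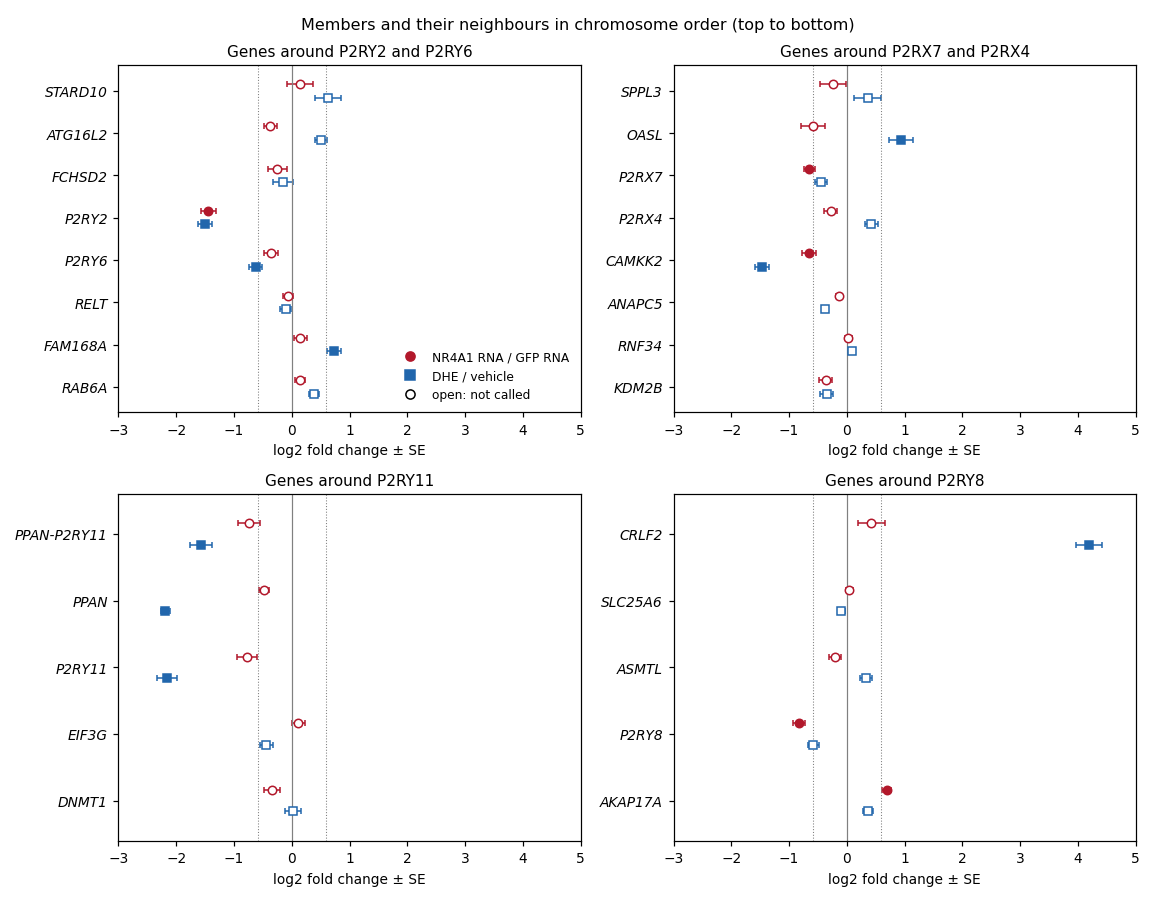
Log2 fold change ± SE (horizontal axes) of tested genes around P2RY2 and P2RY6, P2RX7 and P2RX4, P2RY11 and P2RY8, listed from top to bottom in chromosome order, for NR4A1 RNA over GFP RNA (circles) and DHE over vehicle (squares); filled symbols were called, and dotted lines mark 1.5-fold. P2RY2, at -1.44 and -1.50, stands apart from FCHSD2 and RELT, which were called in neither comparison.

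P2RY11 overlaps PPAN, a ribosome assembly gene, by 320 bases on the same strand, and the joined transcript PPAN-P2RY11 covers both. PPAN stood at 11.2 and 12.9 TPM with DHE, against 56.0 and 55.3 TPM with vehicle, a change of -2.19 (limma adjusted p = 7.4e-05), close to that of P2RY11. PPAN-P2RY11 changed by -1.57 with DHE (limma adjusted p = 0.0018). After NR4A1 RNA PPAN changed by -0.48 (limma adjusted p = 0.025), under 1.5-fold, and PPAN-P2RY11 by -0.74 (limma adjusted p = 0.063), and they were -0.36 and -0.58 without GFP replicate 1, where neither was called, and -0.60 and -0.90 without GFP replicate 2, where both were. The value of P2RY11 divided by that of PPAN was 0.306 and 0.294 with DHE, against 0.324 and 0.312 with vehicle. After NR4A1 RNA it was 0.339 and 0.319, against 0.459 and 0.361 after GFP RNA, where the higher value is that of GFP replicate 1. PPAN, P2RY11 and PPAN-P2RY11 share sequence, so how much of the P2RY11 value belongs to P2RY11 alone is uncertain. EIF3G, which runs into the end of P2RY11 from the other strand over 359 bases, changed by -0.44 with DHE (limma adjusted p = 0.027), and by -0.59 without DHE replicate 1, where it was called.

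NR4A1 binds as a monomer to the element AAAGGTCA, known as the NBRE, whose last letters AGGTCA form the nuclear receptor core. RefSeq promoters (GRCh38.p14) were at hand for 7 of the 10 members, not for P2RY2, P2RY6 and P2RX1, and the 250 bases before each start were searched on both strands. The NBRE stood in none of the 12 starts of these members and in 1.05% of 35116 promoters, and the shorter core stood in 3 of the 12 and in 12.1% of all promoters. The 3 belong to P2RY8 and P2RX7, which were called lower after NR4A1 RNA, and to P2RY11, which was called lower with DHE only. The calls of P2RY8 and P2RX7 were lost without either NR4A1 library. By the GRCh37 positions, the bases just before the start of P2RY11 lie inside PPAN, on the same strand. A link between the core and the calls was not tested, and these few starts leave out P2RY2. The 3 windows that hold the core are printed 5′ to 3′ along the gene's strand, with the core or its reverse complement TGACCT in capitals. A match is a description of the letters and not a measured binding site.
P2RY8, chrX:1494381-1494630, - strand: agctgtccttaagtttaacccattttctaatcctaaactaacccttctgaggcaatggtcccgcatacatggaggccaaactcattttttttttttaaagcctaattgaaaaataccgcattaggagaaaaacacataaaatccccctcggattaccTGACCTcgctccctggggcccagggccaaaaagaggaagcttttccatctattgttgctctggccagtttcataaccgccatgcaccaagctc
P2RX7, chr12:121132626-121132875, + strand: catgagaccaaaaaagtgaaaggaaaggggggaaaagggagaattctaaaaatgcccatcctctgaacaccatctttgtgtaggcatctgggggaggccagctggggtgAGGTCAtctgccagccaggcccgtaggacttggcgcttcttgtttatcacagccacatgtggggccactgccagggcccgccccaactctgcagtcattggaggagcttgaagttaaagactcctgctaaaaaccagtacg
P2RY11, chr19:10111443-10111692, + strand: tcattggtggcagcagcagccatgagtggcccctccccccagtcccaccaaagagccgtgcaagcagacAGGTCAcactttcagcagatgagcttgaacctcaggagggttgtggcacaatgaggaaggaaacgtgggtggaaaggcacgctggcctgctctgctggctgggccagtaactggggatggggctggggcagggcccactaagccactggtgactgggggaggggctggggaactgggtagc
The core begins 93 bases before the start of P2RY8, 141 bases before that of P2RX7 and 181 bases before that of P2RY11. In P2RY8 it reads on the opposite strand, and this start is 1 of 2 in the table, of which the other holds no core.

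The other purinergic receptors were mostly silent. Of 13 such genes 3 were tested, 10 were below the filter, and the highest value of any of them was 5.64 TPM. P2RY4, P2RY10, P2RY12, P2RY14, GPR17, P2RX2, P2RX3, P2RX6, ADORA1 and ADORA3 were all under 0.27 TPM in every library, and GPR17 was at 0 in each. ADORA2A, the adenosine receptor that raises cyclic AMP in leukocytes, was higher after NR4A1 RNA, at 5.64 and 5.16 TPM against 1.67 and 1.84 TPM after GFP RNA, a change of 1.35 (SE 0.11, limma adjusted p = 0.0031). With DHE it stood at 1.63 and 1.65 TPM, against 1.79 and 1.92 TPM with vehicle, and was not called. The call after NR4A1 RNA was lost without either NR4A1 library (limma adjusted p up to 0.052). P2RX5, a channel known from lymphocytes, stood at 1.45 and 1.69 TPM with DHE, against 4.88 and 4.48 TPM with vehicle, a change of -1.34 (limma adjusted p = 3.7e-04), and changed by -0.24 after NR4A1 RNA (limma adjusted p = 0.16). ADORA2B changed by -0.35 and -0.13 and was not called (limma adjusted p = 0.059 and 0.29).

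Genes that break nucleotides down or carry adenosine gave 12 tested of 20. After NR4A1 RNA 2 were called lower and 2 higher, and with DHE 4 lower and 3 higher, with medians of 0.11 and 0.06. Over all tested genes 2.26% were called lower and 2.64% higher after NR4A1 RNA, and 10.1% and 9.07% with DHE. CD38, which makes cyclic ADP-ribose at the cell surface, was higher in both. It stood at 7.28 and 7.41 TPM after NR4A1 RNA, against 1.89 and 2.07 TPM after GFP RNA, and at 10.7 and 13.005 TPM with DHE, against 1.97 and 2.27 TPM with vehicle. These are changes of 1.63 and 2.20 (limma adjusted p = 0.0015 and 8.9e-05).

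SLC29A1, the main equilibrative adenosine carrier, stood at 22.0 and 20.8 TPM after NR4A1 RNA, against 33.5 and 33.2 TPM after GFP RNA, and at 7.39 and 9.52 TPM with DHE, against 40.1 and 38.9 TPM with vehicle. It changed by -0.68 and -2.19 (limma adjusted p = 0.012 and 8.2e-05). ENTPD7, an intracellular relative of ENTPD1, was higher by 0.63 and 0.76 (limma adjusted p = 0.013 and 0.0016). ADA, adenosine deaminase, fell with DHE by 0.98 on the log2 scale (limma adjusted p = 4.1e-04) and changed by 0.16 after NR4A1 RNA. Without NR4A1 replicate 1, NR4A1 replicate 2 or GFP replicate 1 the calls of SLC29A1 and ENTPD7 after NR4A1 RNA were lost (-0.58 to -0.70 and 0.56 to 0.65).

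Of the 12 genes for nucleotide release 7 were tested. None was called after NR4A1 RNA by limma, where 2.26% of all tested genes were called lower and 2.64% higher, and 2 had an unadjusted p under 0.05. With DHE SLC17A9, the vesicular nucleotide transporter, stood at 6.73 and 5.65 TPM against 19.6 and 18.1 TPM with vehicle, a change of -1.55 (limma adjusted p = 7.1e-04). LRRC8D, a subunit of the volume-regulated anion channel, changed by -0.65 and CALHM2 by 0.79 (limma adjusted p = 0.0019 and 0.0052).

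**Figure D5:**
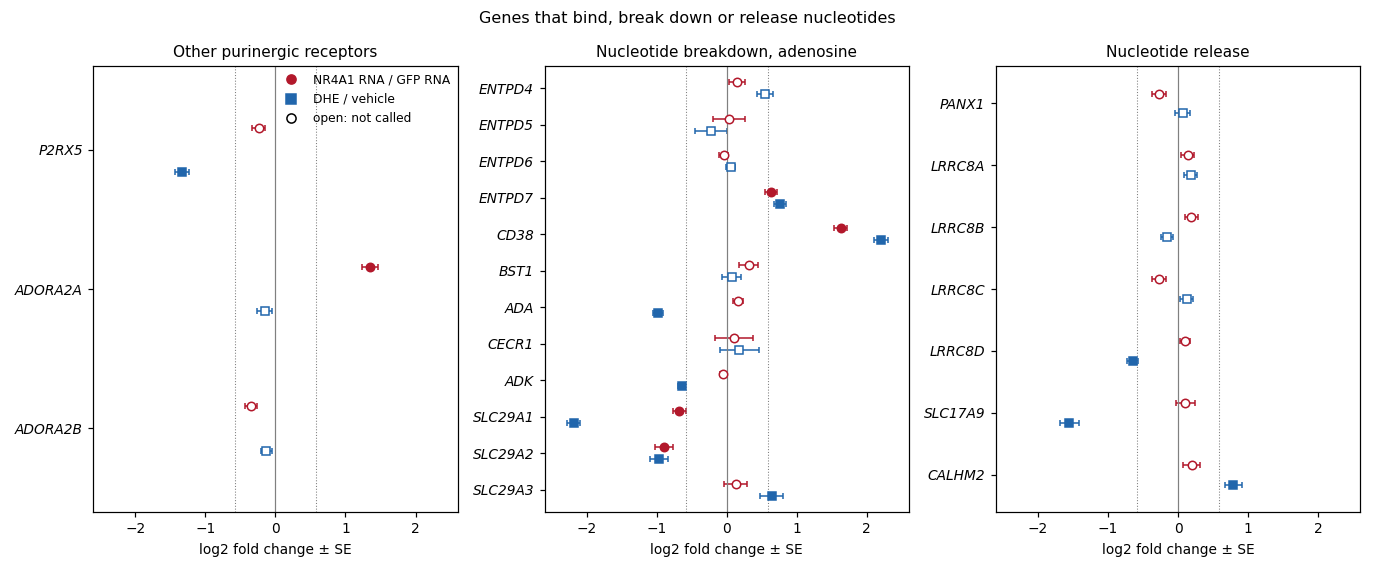
Log2 fold change ± SE (horizontal axes) of the tested genes among other purinergic receptors (left), genes of nucleotide breakdown and adenosine handling (middle) and genes of nucleotide release (right), for NR4A1 RNA over GFP RNA (circles) and DHE over vehicle (squares); filled symbols were called, and dotted lines mark 1.5-fold. ADORA2A, at 1.35, rose after NR4A1 RNA, and CD38, at 1.63 and 2.20, in both.

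Downstream of the P2Y receptors, 21 of 24 genes of G protein and calcium signalling were tested, and 1 was called lower after NR4A1 RNA, and 1 lower and 3 higher with DHE. The shares over all tested genes were 2.26% lower after NR4A1 RNA, and 10.1% lower and 9.07% higher with DHE. GNA15, the promiscuous Gq class subunit of blood cells through which P2RY2 can signal, was the 1 lower in each. It stood at 40.5 and 39.0 TPM after NR4A1 RNA, against 55.5 and 68.6 TPM after GFP RNA, and at 43.2 and 37.6 TPM with DHE, against 76.8 and 76.7 TPM with vehicle. It changed by -0.68 and -0.94 (limma adjusted p = 0.029 and 0.0028). The first call was lost when either NR4A1, either GFP or either vehicle library was left out (limma adjusted p up to 0.17), and also under other settings. ITPR1, the calcium release channel, changed by 0.67 and ARHGEF11 by 0.69 with DHE (limma adjusted p = 0.0026 and 0.0039).

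The inflammasome genes that P2RX7 feeds were tested in 8 of 9 cases, and limma called none after NR4A1 RNA (2 had an unadjusted p under 0.05) and 1 in each direction with DHE. Beside this, 10.1% of all tested genes were called lower and 9.07% higher with DHE. NLRP3 stood at 21.1 and 20.3 TPM with DHE, against 33.0 and 31.5 TPM with vehicle, a change of -0.65 (limma adjusted p = 0.0037) that was under 1.5-fold without DHE replicate 2 (-0.53). After NR4A1 RNA NLRP3 changed by -0.49 (limma adjusted p = 0.032), under 1.5-fold. TXNIP changed by 0.66 with DHE (limma adjusted p = 0.0027) and by 0.54 without DHE replicate 1. Beside these results, of the 7 listed myeloid leukaemia markers 2 were called lower and 1 higher with DHE, and 1 lower after NR4A1 RNA. After NR4A1 RNA 2.26% of all tested genes were called lower. With DHE PTPRC (CD45) was higher by 1.08, FLT3 changed by -0.95 and MPO by -0.71 (limma adjusted p = 5.4e-04, 7.1e-04 and 7.9e-04). MEIS1 and HOXA9 changed by 0.42 and 0.48 and CD33 by -0.48, all under 1.5-fold (limma adjusted p = 0.013, 0.040 and 0.0078). SPI1 changed by -1.04 after NR4A1 RNA (limma adjusted p = 0.028), while PTPRC changed by 0.54, under 1.5-fold (limma adjusted p = 0.020). The SPI1 call was lost in 5 of the 8 fits that leave out 1 library (either NR4A1 or vehicle library or GFP replicate 1). The part of these markers in the receptor results was not tested.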

How the data were processed

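RNA was measured in 8 MOLM-14 libraries, 2 in each of 4 groups taken from the sample titles, and the 7 chromatin samples were not analysed here. The authors trimmed the reads with Trim Galore, quantified transcripts with Salmon 0.11.0 against Gencode and deposited TPM for each gene, with no scaling between libraries; the libraries are strand-marked and depleted of ribosomal RNA. TPM keep no depth, so the read count behind a value is unknown and precision rests on the 2 libraries of a group. The fold changes and p-values of the authors' own comparisons, deposited beside the TPM, were not used. Where a symbol stood more than once, the entry with the highest mean was taken.

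Libraries were scaled by their median of ratios. The 14367 genes that reached 1 TPM in 2 or more libraries were fitted as log2(scaled TPM + 0.5) in limma 3.58.1 (R 4.3.3), using group means over all 4 groups and a variance trend with intensity (4 residual and 2.07 prior degrees of freedom). Each gene thus had 1 spread for all groups, although the groups differed in theirs. The median absolute log2 difference between replicates was 0.200 for GFP RNA and 0.171 for DHE, against 0.078 for NR4A1 RNA and 0.077 for vehicle. Benjamini-Hochberg adjustment ran over all tested genes. A call needed an adjusted p under 0.05 and more than 1.5-fold, and for the DHE effect minus the NR4A1 effect the adjusted p alone. Changes of low genes are understated on this scale. Statements that libraries did not overlap describe 2 against 2 libraries, and the share of all genes that separate in this way was not counted. The fit was tested on simulated data. Members, gene lists and tests were chosen with earlier results of these data known. The genes named are the 10 members, every other purinergic receptor, up to 3 called genes with the smallest p of each list and comparison, neighbours set beside a member, and the 6 genes most like P2RY2. NR4A1, NR4A2, NR4A3 and the 3 ribosomal RNA related entries were named to check the libraries. Gene positions come from Gencode lifted to GRCh37, and promoters from RefSeq. Alternatives were other scalings, pseudocounts, filters, a fit of the 4 libraries compared, a replicate block, robust empirical Bayes, leaving out each library, and, added after the data were seen, a scaling without 3 ribosomal RNA related entries and a fit without GFP replicate 1 and DHE replicate 2 together.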

Additional observations from a re-analysis of the deposited data

Results flagged for a closer look

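The DHE effect minus the NR4A1 effect passed the limma test of that difference itself (adjusted p under 0.05) for the genes below, which are limited to those singled out by the naming rule, and each value is this difference on the log2 scale. Among the members these were P2RY11 (-1.39), P2RX1 (0.62) and P2RX4 (0.70). Of the other receptors and of the genes of nucleotide breakdown, adenosine handling and release they were ADORA2A (-1.51), P2RX5 (-1.09), CD38 (0.57), SLC29A1 (-1.51), ADA (-1.14), SLC17A9 (-1.65) and LRRC8D (-0.75). Among signalling and inflammasome genes they were ITPR1 (1.07), ARHGEF11 (0.75) and TXNIP (0.48). Genes near a member, not all of them adjacent to it, were PPAN (-1.71), CAMKK2 (-0.82), OASL (1.52), CRLF2 (3.77), ITGAE (-0.88), ALDH18A1 (-0.75) and ATG16L2 (0.87). Of these, CRLF2 reached the filter of 1 TPM only in the DHE libraries and OASL only in the GFP libraries. Their differences therefore rest on the group that admitted them, and that they passed carries no weight. Of the listed myeloid leukaemia markers they were PTPRC (0.54), FLT3 (-1.03) and MPO (-0.65). Over all tested genes 18.9% passed this test. By list, it was passed by 3 of 8 tested members, 2 of 3 other receptors and 4 of 12 tested genes of nucleotide breakdown and adenosine handling. It was also passed by 2 of 7 genes of nucleotide release, 6 of 21 of signalling and 2 of 8 of the inflammasome. Of the neighbours 9 of 27 passed, CRLF2 and OASL among them, and of the myeloid leukaemia markers 3 of 7. The genes given here are thus part of those lists. A positive value means a higher change with DHE than after NR4A1 RNA. The differences for P2RY11, P2RX1 and P2RX4 lost their calls in 5, 4 and 5 of the 8 fits that leave out 1 library, and those of the other genes were not refitted without single libraries.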

How the results depend on the processing

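P2RY2 was called lower under every alternative, with changes of -1.59 to -1.30 after NR4A1 RNA and -1.62 to -1.38 with DHE when 1 library was left out. Its DHE effect minus its NR4A1 effect ranged from -0.21 to 0.087 with 1 library left out, was 0.12 when 3 ribosomal RNA related entries were left out of the scaling, and was -0.34 and passed (limma adjusted p = 0.047) without GFP replicate 1 and DHE replicate 2 together; the cause was not tested. The 3 members called after NR4A1 RNA became 1 (P2RY2) in a fit of the 4 libraries compared and 1 to 5 with 1 library left out, and the 0 members called between GFP RNA and vehicle became 0 to 1. With DHE the count was 2 to 4 over all alternatives. P2RX7 lost its call after NR4A1 RNA with no rescaling (-0.61), with upper quartile scaling (-0.57) and without the 3 entries in the scaling (-0.77), P2RY6 lost its call with DHE at a pseudocount of 1 (-0.55) and without the 3 entries in the scaling (-0.57), P2RY11 gained one after NR4A1 RNA with a filter of 5 TPM and with robust empirical Bayes (limma adjusted p = 0.035 and 0.046), and P2RY8 gained one with DHE at a pseudocount of 0.1 (-0.59) and with upper quartile scaling (-0.67).

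Over all genes, the 704 calls after NR4A1 RNA became 454 with no rescaling, 226 in the fit of 4 libraries and 93 to 1499 with 1 library left out; the 2760 with DHE ranged from 1988 to 2948. Higher genes were 54.0% of the calls after NR4A1 RNA and 47.2% with DHE, 66.3% and 36.2% with upper quartile scaling, and 42.7% and 52.1% without the 3 entries in the scaling, which moved the median of all genes after NR4A1 RNA to -0.13. Replicate numbers showed no pairing of the libraries (correlation of replicate differences -0.01 between NR4A1 and GFP, 0.02 between DHE and vehicle and -0.14 between GFP and DHE). Such a correlation cannot show whether libraries shared a culture or a batch. With a replicate block P2RY2 changed by -1.44 and -1.50 (limma adjusted p = 0.016 and 0.0027), the count of calls was 477 and 2585, and the same members were called; GNA15, CAMKK2, ITGAE and SPI1 lost their calls after NR4A1 RNA (limma adjusted p = 0.063, 0.066, 0.065 and 0.066) and the difference between effects on P2RX4 no longer passed (0.060). That difference was also lost with no rescaling, upper quartile scaling, no filter, without the 3 entries in the scaling and without GFP replicate 1 and DHE replicate 2 (limma adjusted p = 0.051 to 0.12). That of P2RX1 was lost with no rescaling and without the 3 entries (0.079 and 0.054), and that of P2RY11 without the 3 entries (0.063). The GNA15 call was also lost with no rescaling, upper quartile scaling and no filter (0.056, 0.077 and 0.067). Of 50 calls of named genes, 29 held with any 1 library left out and 34 under all the other alternatives. TPM keep no depth, so counting error could not be weighed, and with 2 libraries a group a left-out library leaves a lone one whose spread is taken from the other groups.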
